A study of Mus musculus with 10 samples.

Results

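The 10 genes Hopx, Ager, Pdpn, Aqp5, Rtkn2, Clic5, Akap5, Cav1, Emp2 and Igfbp2 are used as markers of alveolar type 1 (AT1) cells and of differentiation towards them. They were matched by symbol among the 31053 genes listed for each library, and all 10 were found once. Single-cell RNA counts had been collected from EpCAM+ epithelial cells of the mouse distal lung, sorted as RFP+ or YFP+, in 10 libraries that fall into 6 groups. In Sftpc-CreERT2; R26R-Confetti mice (Confetti), tamoxifen switches on fluorescent proteins in Sftpc-expressing alveolar type 2 (AT2) cells, both colours are wildtype, and there is 1 RFP and 1 YFP library. In Sftpc-CreERT2; Red2Kras mice (Red2Kras), RFP+ cells are mutant while YFP+ cells of the same lungs are their wildtype neighbours, and there are 2 RFP and 2 YFP libraries at 4 days (4d) and at 2 weeks (2w) after induction. Every group therefore shares the Sftpc-driven Cre, tamoxifen and a label that starts in AT2 cells. Each library came from pooled lungs, according to the study's methods. The Confetti libraries carry no label for time, and the methods put them at the later time point.

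AT1 cells are the thin, flat cells across which gas is exchanged, and AT2 cells are the cuboidal cells that make surfactant and can give rise to AT1 cells. AT2 cells that leave their identity pass through a transitional state, the damage-associated transient progenitor (DATP), known for keratins and claudin 4, before they take on AT1 genes. The comparisons ask whether mutant cells, or the wildtype cells beside them, gain these AT1 genes over time, and whether the genes do so together.

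Of 42012 barcodes, 32698 passed the filters and 29578 were kept as alveolar cells, from 1008 to 4224 in a library. Their summed UMIs ranged from 7336824 in 2w YFP replicate 2 to 71490396 in 2w RFP replicate 1, and their median UMIs per cell from 3251 in Confetti YFP to 15810 in 2w RFP replicate 1. Immune, endothelial, mesenchymal and ciliated clusters were left out, which took 3.18% of the cells of 4d RFP replicate 1 and 42.3% of those of 2w YFP replicate 2. The label of AT2-derived cells fits the sums, in which all 6 AT2 markers had UMIs in every library and together held 88881 to 202269 CPM (UMIs scaled to a common total per library), whereas Pdpn, in cluster 7, was the 1 AT1 gene of the 10 among the leading genes of any alveolar cluster. The mice also differed in sex, since cells with Xist and no Y-linked RNA made up 100% of the cells of either Confetti library whose sex could be read, 25.8% to 85.1% in the Red2Kras libraries numbered 1, and 0.0519% to 0.536% in those numbered 2. Mouse line, sex and any batch cannot be told apart from the comparison with Confetti. The 2w RFP replicate 2 library stood apart for most of the genes below, so values of the members without it are given beside many of the comparisons of 2w RFP. For the other gene lists only the calls without it are given.

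The promoters of 3 of the genes are shown because Hopx and Akap5 were found in the same cells, and Pdpn was the member called in the library sums. Each is the 250 bases before a RefSeq transcript start on GRCm38.p6, read in the direction of the gene, for Hopx at chr5:77115124-77115373 (minus strand), for Akap5 at chr12:76324641-76324890 (plus strand) and for Pdpn at chr4:143299565-143299814 (minus strand). Capitals mark the single match to the NKX2-1 motif CTCAAG, here on the other strand, 112 bases before this Hopx start. RefSeq gives Hopx a second start, whose window at chr5:77095268-77095517 holds no match to the 3 motifs searched.

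Hopx: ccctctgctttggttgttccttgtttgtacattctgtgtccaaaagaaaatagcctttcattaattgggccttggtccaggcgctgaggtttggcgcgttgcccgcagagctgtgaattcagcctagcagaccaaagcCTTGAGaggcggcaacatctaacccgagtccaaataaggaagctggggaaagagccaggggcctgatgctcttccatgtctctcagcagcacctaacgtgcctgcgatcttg
Akap5: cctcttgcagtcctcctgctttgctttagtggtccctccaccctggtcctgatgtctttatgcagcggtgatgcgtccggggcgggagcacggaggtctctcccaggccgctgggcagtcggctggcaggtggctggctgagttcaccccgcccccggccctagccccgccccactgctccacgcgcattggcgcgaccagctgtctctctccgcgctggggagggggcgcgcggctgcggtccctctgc
Pdpn: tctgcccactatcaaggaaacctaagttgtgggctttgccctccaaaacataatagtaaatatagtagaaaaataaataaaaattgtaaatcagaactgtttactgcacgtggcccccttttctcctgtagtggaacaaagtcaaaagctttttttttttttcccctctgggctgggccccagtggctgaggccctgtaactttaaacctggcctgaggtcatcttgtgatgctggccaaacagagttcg

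NKX2-1 is the transcription factor that sets lung epithelial identity, and TEAD factors act with YAP and TAZ in AT1 cells. Besides CTCAAG, the windows were searched on both strands for the TEAD motif GGAATG and the AP-1 motif TGANTCA. Neither of these motifs occurs in the 3 windows shown, and among all 12 windows of the 9 genes with an entry, a second Igfbp2 window held the only other matches, 1 for AP-1 and 1 for NKX2-1, which overlap. Over all 32851 promoters of the same length, 12.6% hold GGAATG, 6.75% hold TGANTCA and 13.3% hold CTCAAG. Rtkn2 is named only.

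Pdpn, at chr4:143267431-143299564 on the minus strand of GRCm38, encodes podoplanin, a mucin-type membrane glycoprotein of the AT1 surface. Its level, in CPM with TMM factors, was 1.45 in Confetti RFP and 2.29 in Confetti YFP. In Red2Kras YFP it was 4.04 and 4.73 at 4 days and 8.15 and 17.5 at 2 weeks. In Red2Kras RFP it was 11.3 and 23.1 at 4 days and 41.3 and 81.3 at 2 weeks. Both libraries of each group lay on the same side of both libraries of any other group, apart from 2w YFP and 4d RFP, which overlapped. Pdpn rose in 2w RFP against Confetti by a log2 fold change of 5.07 ± 0.59 (SE), with an adjusted p of 0.0224 in edgeR's quasi-likelihood test, and it was the 1 member called of the 9 with enough UMIs for a fold change. In that comparison 5.41% of all genes tested were called. The call was lost, with adjusted p from 0.0699 to 0.125, when Confetti RFP, Confetti YFP or 2w RFP replicate 2 was left out, and at 0.106 when discarded cells were added to the sums, with log2 fold changes from 4.40 to 5.37. Fewer cells with Pdpn RNA and less of it per cell cannot be told apart in such sums, which holds for every gene below.

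Both RFP libraries held more Pdpn than both YFP libraries at either time. The log2 fold change of RFP against YFP was 1.95 ± 0.52 at 4 days (adjusted p = 0.810 in edgeR) and 2.29 ± 0.51 at 2 weeks (adjusted p = 0.191), and 0% and 0.00726% of all genes tested were called in these comparisons. Without 2w RFP replicate 2 the value at 2 weeks was 1.69. DESeq2 called Pdpn at 4 days (adjusted p = 0.0283, with 0.769% of all genes) and at 2 weeks (adjusted p = 0.00170, with 3.4%), as did edgeR without a filter on low counts (adjusted p = 6.40e-06 and 4.29e-09, with 2.38% and 6.63% of all genes). Over the 8 Red2Kras libraries, with time as a term, it was 2.10 ± 0.35 with an adjusted p of 0.0732, where 0% of genes were called. With the replicate number as a block, the value was 2.08 and Pdpn was called (adjusted p = 0.0164), as were 7% of all genes tested, and its adjusted p equalled the lowest of any gene in that fit. Pdpn was also called by DESeq2 (2.13, adjusted p = 2.63e-06), without a filter on low counts (2.13, adjusted p = 6.92e-16) and without 4d RFP replicate 1 (2.33, adjusted p = 0.0102), with 9.79%, 9.4% and 11.3% of all genes. The wildtype neighbours at 2 weeks were above both Confetti libraries, by a log2 fold change of 2.78 ± 0.56 (adjusted p = 0.609), where 0.0218% of genes were called. The 4d RFP libraries were above Confetti by 3.22 ± 0.56 (adjusted p = 0.306), where 0% of genes were called. With the replicate block both were called, 2w YFP with an adjusted p of 0.0305 and 4d RFP with 0.0241, against 0.0798% and 0.0581% of all genes. DESeq2 called both too, at 0.000158 and 2.77e-06, against 0.726% and 1.94% of all genes, as did edgeR without a filter on low counts, at 5.63e-11 and 6.21e-15, against 2.58% and 3.93%. All these comparisons with Confetti share its 2 libraries.

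**Figure D1:**
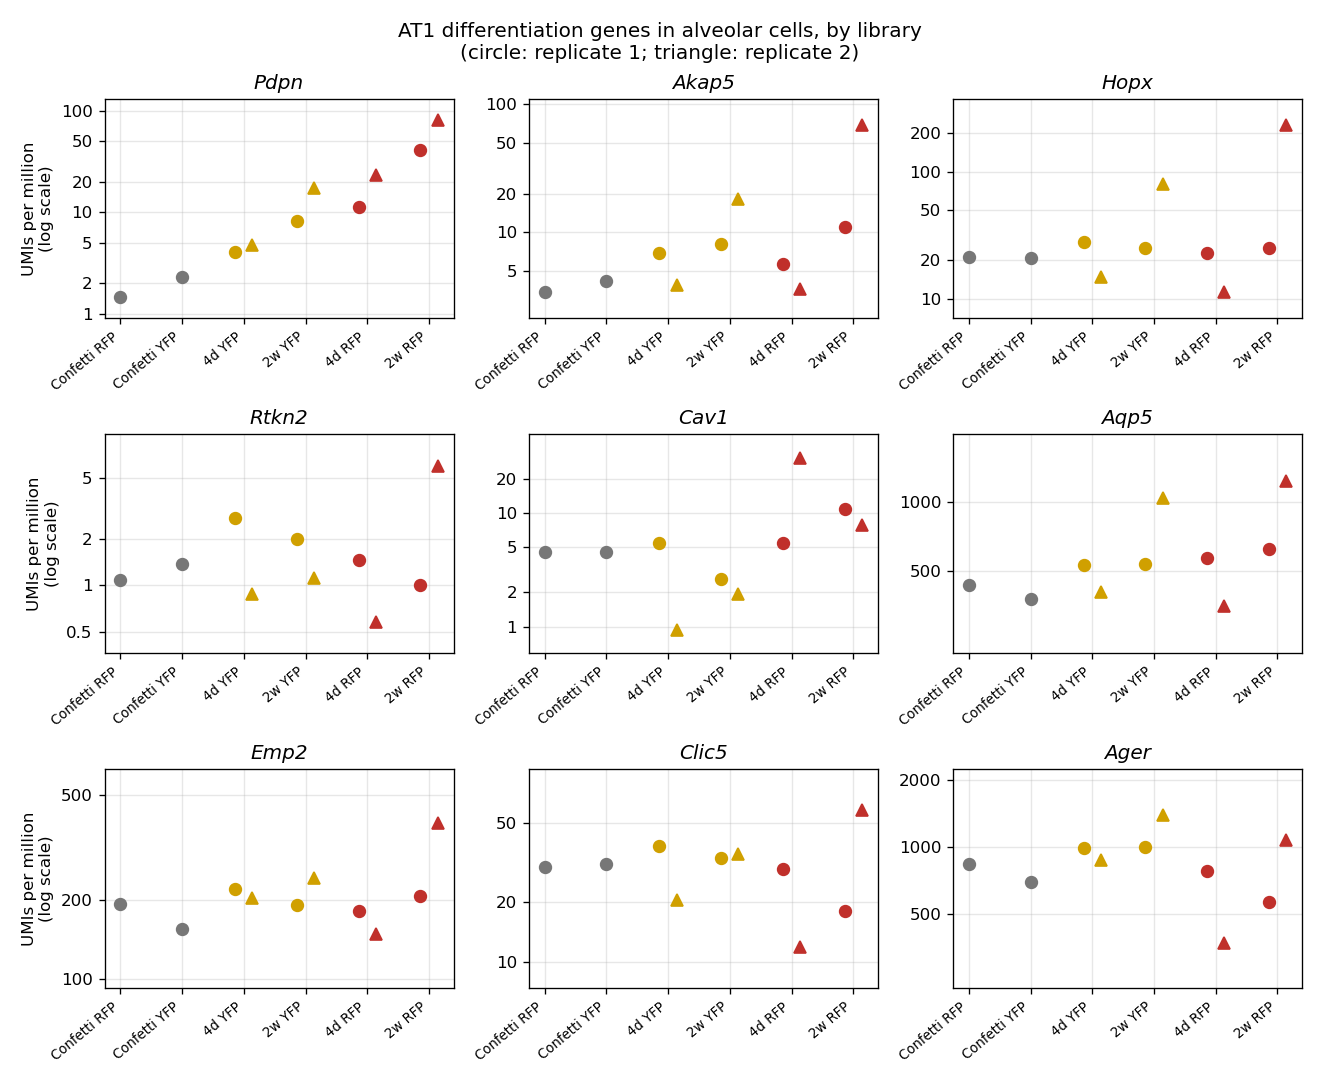
Level of 9 of the genes (CPM after TMM scaling, log axis) in each of the 10 libraries, by group, with circles for replicate 1 and triangles for replicate 2; Confetti libraries are grey, Red2Kras YFP yellow and Red2Kras RFP red. Pdpn goes from 1.45 in Confetti RFP to 81.3 in 2w RFP replicate 2, Cav1 is highest in 4d RFP replicate 2, and 7 of the 9 genes are highest in 2w RFP replicate 2.

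Akap5, at chr12:76324891-76334153 on the plus strand, encodes an A-kinase anchoring protein, a scaffold that holds protein kinase A at the membrane. Its level was 3.44 and 4.19 CPM in Confetti RFP and YFP, 5.71 and 3.598 in 4d RFP, 6.86 and 3.92 in 4d YFP, 8.15 and 18.3 in 2w YFP, and 10.98 and 68.1 in 2w RFP. The 2w libraries of both colours were thus above all others, and 2w RFP replicate 2 was far above the rest. The log2 fold change of 2w RFP against Confetti was 3.38 ± 0.83, with an adjusted p of 0.0519 in edgeR, and 1.499 (adjusted p = 0.275) without 2w RFP replicate 2. The replicate block gave 3.15 and called Akap5 (adjusted p = 0.0316), together with 23% of all genes tested. DESeq2 also called it, at an adjusted p of 5.44e-05, together with 16% of all genes tested.

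Hopx, at chr5:77086988-77115121 on the minus strand, encodes a small homeodomain protein that does not bind DNA and acts as a transcriptional cofactor. It overlaps an antisense gene, Hopxos, which had 20 UMIs against 14314 of Hopx. Hopx was at 21.2 and 20.9 CPM in Confetti RFP and YFP, 23.0 and 11.3 in 4d RFP, 28.0 and 14.7 in 4d YFP, 24.9 and 79.2 in 2w YFP, and 25.1 and 231.5 in 2w RFP. A high level was thus seen in replicate 2 of both 2w groups. The log2 fold change of 2w RFP against Confetti was 2.60 ± 0.98 (adjusted p = 0.120), and 0.22 (adjusted p = 0.904) without 2w RFP replicate 2. Without a filter on low counts Hopx was called (2.68, adjusted p = 3.18e-12), together with 15.6% of all genes. Rtkn2, at chr10:67979570-68059740, encodes rhotekin 2 and had 498 UMIs in all alveolar cells. Its level was 5.97 CPM in 2w RFP replicate 2 and 0.580 to 2.73 in the other 9 libraries, and its log2 fold change of 1.501 ± 0.91 (adjusted p = 0.288) for 2w RFP against Confetti turned to -0.32 without that library.

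Aqp5, at chr15:99590782-99594829 on the plus strand, encodes the water channel aquaporin 5 of the AT1 apical membrane. Its level was 434.3 and 376.3 CPM in Confetti RFP and YFP, 572.8 and 349.6 in 4d RFP, 529.8 and 404.9 in 4d YFP, 539.1 and 1046 in 2w YFP, and 622.2 and 1241 in 2w RFP. All 4 libraries of 2 weeks lay above both Confetti libraries. Both libraries did so for 37.4% of all genes tested in 2w RFP and for 25% in 2w YFP. The difference of Aqp5 in 2w RFP from Confetti was 1.20 ± 0.47 on the log2 scale (adjusted p = 0.132 in edgeR). It passed in DESeq2 (adjusted p = 0.0392), together with 16% of all genes tested, and it was 0.59 without 2w RFP replicate 2. Emp2, at chr16:10281749-10313968, encodes a tetraspan epithelial membrane protein, and Clic5, at chr17:44188584-44280172, a chloride intracellular channel protein linked to the actin cortex. Emp2 was at 148.2 to 241.8 CPM in 9 libraries and at 391.6 in 2w RFP replicate 2, with a log2 fold change of 0.79 ± 0.35 for 2w RFP against Confetti (adjusted p = 0.163), and 0.23 (adjusted p = 0.781) without 2w RFP replicate 2. Clic5 was at 11.8 in 4d RFP replicate 2, at 18.1 to 38.2 in the next 8 libraries and at 57.8 in 2w RFP replicate 2. Since the replicates of 2w RFP stood below and above both Confetti libraries for Clic5, its log2 fold change of 0.32 ± 0.59 (adjusted p = 0.739) turned to -0.78 without replicate 2.

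Ager, at chr17:34597862-34600936 on the plus strand, encodes the receptor for advanced glycation end products, which is abundant on the basal membrane of AT1 cells. It was at 837.8 and 697.5 CPM in Confetti RFP and YFP, 780.7 and 370.6 in 4d RFP, 986.3 and 875.9 in 4d YFP, 995.1 and 1394 in 2w YFP, and 567.3 and 1079 in 2w RFP. The YFP libraries of both times lay above both Confetti libraries, whereas 4d RFP replicate 2 and 2w RFP replicate 1 lay below both, 2w RFP replicate 2 above both and 4d RFP replicate 1 between them. The RFP libraries were below the YFP libraries at 4 days and overlapped them at 2 weeks, and the log2 fold change over the 8 libraries was -0.63 ± 0.30, which did not pass (adjusted p = 0.266). It stayed between -0.86 and -0.44 in the 13 alternatives.

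Cav1, at chr6:17306335-17341452 on the plus strand, encodes caveolin 1, the coat protein of caveolae, which AT1 and endothelial cells share. It was at 4.53 and 4.51 CPM in Confetti RFP and YFP, 5.46 and 30.6 in 4d RFP, 5.45 and 0.935 in 4d YFP, 2.64 and 1.92 in 2w YFP, and 10.8 and 7.76 in 2w RFP. It was the 1 member for which every mutant library lay above every neighbour library (5.46 in 4d RFP replicate 1 against 5.45 in 4d YFP replicate 1 at the closest), and 4.3% of all genes tested did so. The log2 fold change was 2.23 ± 0.61 with an adjusted p of 0.102, and 1.52 (adjusted p = 0.227) without 4d RFP replicate 2, the library with the highest level. Cav1 was called by DESeq2 (2.27, adjusted p = 0.00293), without a filter on low counts (2.25, adjusted p = 8.89e-13) and without 4d RFP replicate 1 (2.55, adjusted p = 0.0213), and with the replicate block the adjusted p was 0.0750. The first 3 of these called 9.79%, 9.4% and 11.3% of all genes tested. When discarded cells, endothelial cells among them, were added to the sums it was 0.16. Igfbp2, at chr1:72824503-72852474, encodes a secreted insulin-like growth factor binding protein that marks late AT1 cells. It had 18 UMIs over all alveolar cells, 3 and 4 in the 2w RFP libraries, 6 and 5 in 2w YFP and 0 in the other 6, so no fold change is given.

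The comparisons of 2w RFP and 2w YFP with Confetti share its 2 libraries, so a direction common to both is not independent, and each is given with its own values. In 2w RFP against Confetti all 9 fold changes were positive, with a median of 1.20 on the log2 scale against 0.03 over all genes tested. Both mutant libraries lay above both Confetti libraries for 7 of the 10 genes (Hopx, Pdpn, Aqp5, Akap5, Cav1, Emp2 and Igfbp2), as for 37.4% of all genes tested. Igfbp2 is in this count on 3 and 4 UMIs against 0. Its levels of 0.0390 and 0.0979 CPM were below what 3 UMIs would give in Confetti RFP (0.181) and YFP (0.196), so its order cannot be read. Without 2w RFP replicate 2, 6 of the 9 fold changes were positive, with a median of 0.23, and those of Rtkn2 (-0.32), Ager (-0.46) and Clic5 (-0.78) were negative. In 2w YFP against Confetti, 8 of 9 were positive with a median of 0.64 against 0.01. There 7 of the 10 (Hopx, Ager, Pdpn, Aqp5, Clic5, Akap5 and Igfbp2) had both libraries above Confetti, against 25% of all genes, while Cav1 was below. Igfbp2 is in this count on 6 and 5 UMIs against 0. Without 2w YFP replicate 2, 8 of 9 were positive with a median of 0.38, Hopx was at 0.24 and Aqp5 at 0.41. Between mutant and neighbour cells at 2 weeks, 8 of 9 were positive with a median of 1.09, but without 2w RFP replicate 2 the positive values were those of Pdpn (1.69) and Cav1 (2.17) alone, and the median was -0.38. Pdpn and Cav1 were higher in both mutant libraries, at 2 weeks, against 28.3% of all genes, and Igfbp2, at 3 to 6 UMIs, was lower. At 4 days the median log2 fold change of the 9 was -0.07 in mutant cells against Confetti and -0.30 against their neighbours, with Pdpn and Cav1 as the only positive values in the latter. From 4 days to 2 weeks in mutant cells, the log2 fold changes were 3.06 ± 0.82 for Akap5, 2.89 ± 0.99 for Hopx and 1.85 ± 0.50 for Pdpn (adjusted p from 0.413 to 0.424), and -0.94 ± 0.84 for Cav1 (adjusted p = 0.664), where 0% of all genes tested were called. DESeq2 called Akap5 (adjusted p = 0.00358) and Pdpn (adjusted p = 0.0387) with 0.973% of all genes, and edgeR without a filter on low counts called Akap5 (adjusted p = 3.99e-14), Hopx (1.35e-13) and Pdpn (4.18e-06) with 3.33%. Without 2w RFP replicate 2 the values were 1.20 for Akap5, 0.51 for Hopx, 1.26 for Pdpn and -0.73 for Cav1 (adjusted p = 1 for each). In 4d YFP against Confetti, in which 0.029% of genes were called (0.0508% with the replicate block), the values lay between -0.55 for Cav1 and 1.27 for Pdpn and none of the 9 was called, with Pdpn alone at an unadjusted p below 0.05 (0.0497).

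In the comparisons where edgeR called 0 genes, many had an unadjusted p under 0.05: 1215 in 4d RFP against Confetti, 781 in 4d RFP against 4d YFP, 1528 in 2w RFP against 4d RFP and 2765 over both times, where DESeq2 called 267, 106, 134 and 1257.

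**Figure D2:**
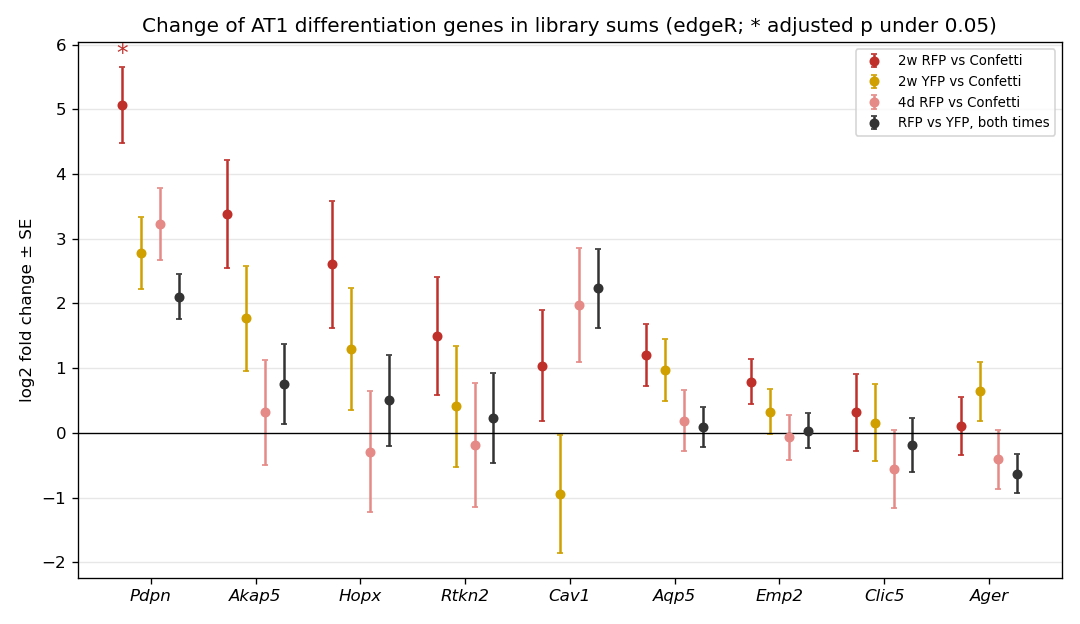
Log2 fold change of 9 genes (points) with its standard error (bars) in library sums, for 4 comparisons, from edgeR's quasi-likelihood fits; the star marks an adjusted p under 0.05. Pdpn in 2w RFP against Confetti (5.07 ± 0.59) is the 1 value with a star, and Cav1 is the 1 gene below 0 in 2w YFP against Confetti (-0.94).

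Over the 10 libraries, the spread between the highest and lowest level was 56.1-fold for Pdpn, 32.8-fold for Cav1, 20.6-fold for Hopx, 19.8-fold for Akap5 and 10.3-fold for Rtkn2, against 4.89-fold for Clic5, 3.76-fold for Ager, 3.55-fold for Aqp5 and 2.64-fold for Emp2. The library 4d RFP replicate 2 was the lowest of all for Hopx, Ager, Aqp5, Rtkn2, Clic5 and Emp2 and the highest for Cav1. Among 7043 genes with a mean of at least 10 CPM, the gene with the pattern most like that of Pdpn was Anxa1, annexin A1 (Pearson r = 0.984 of log2 levels over 10 libraries), and it was Akirin2 for Cav1 (r = 0.984). The genes most like the remaining members were Mboat7 for Hopx, Edem2 for Akap5, Mtfr1l for Ager, Snap47 for Aqp5, Pon2 for Emp2, Stard3 for Clic5 and Rab14 for Rtkn2, with r from 0.902 to 0.987. For Igfbp2 it was Arl6ip5 (r = 0.901), which rests on 18 Igfbp2 UMIs. These are descriptions over 10 libraries that share depth and composition.

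Of 20 other genes linked to AT1 cells, 19 were tested, and 1 rose and 1 fell in 2w RFP against Confetti, where 5.41% of all genes tested were called. Krt7, a simple-epithelium keratin, rose by 4.38 ± 0.90 on the log2 scale (adjusted p = 0.0442 in edgeR), and Cyp2b10, a cytochrome P450, fell by 4.74 ± 0.64 (adjusted p = 0.0327), and the list had a median of 0.39. With the replicate block, which called 23% of all genes, 3 rose, Sema3e and S100a6 beside Krt7, and 1 fell. Of 12 transitional genes, 6 rose and none fell, with a median of 2.37, among them the tight-junction gene Cldn4 (7.40 ± 1.37), the keratins Krt19 (3.08 ± 0.59) and Krt18 (2.80 ± 0.42) and the EGFR ligand Areg (3.01 ± 0.43), each with an adjusted p from 0.0331 to 0.0421. Of 8 regulators of alveolar fate none rose and 1 fell, Etv5, an ETS factor that maintains AT2 cells, by 2.15 ± 0.44 (adjusted p = 0.0441), while with the replicate block Yap1 fell too. Of 10 AT2 genes none rose and 1 fell, Abca3, the lamellar body lipid transporter, by 1.43 ± 0.33 (adjusted p = 0.0470), and 4 fell with the replicate block. No gene of these 4 lists was called in the other 7 comparisons in edgeR's main fits without the block. For those 7 comparisons the lists were not counted under DESeq2 or the other alternatives. With the block, RFP against YFP over both times, where 7% of all genes were called, called 9 transitional genes higher, 3 other AT1 genes higher (Krt7, Sema3e and Cav2) and 2 lower (Cyp2b10 and Gramd2), Etv5 lower and 2 AT2 genes lower. The 10 calls of these lists in 2w RFP against Confetti changed when single libraries were left out. None (0) of the 10 was called without Confetti RFP, without Confetti YFP, without 2w RFP replicate 2 or in sums of all cells, where 1, 1, 5 and 0 genes were called in all against 746 as reported. Without either 4d YFP library 1 of the 10 was called (Cyp2b10), 4 were called without either 2w YFP library, and 7 were called without 2w RFP replicate 1. DESeq2 and the replicate block called all 10. These lists were chosen with results of these data known, so their direction is not independent evidence.

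In single cells, detection was compared after every cell had been thinned to 2000 UMIs, which left out 18 of the 29578 alveolar cells. Ager was detected in 47.0% of cells in 4d RFP replicate 2 and 61.9% to 85.8% in the other 9 libraries, and Aqp5 in 37.9% of the former and 46.0% to 80.0% in the rest. In the 2424 immune cells that were discarded, whose median depth was 7088 UMIs before thinning against 3251 to 15810 in alveolar cells, Ager was seen in 5.45% and Aqp5 in 3.92%. Among them, cluster 15, led by S100a8, had 34.0% and 23.0%. Ager and Aqp5 were in 13.6% and 12.5% of mesenchymal, 11.2% and 8.01% of endothelial and 9.02% and 5.88% of ciliated cells. In the wildtype Confetti RFP and YFP libraries, Ager was detected in 73.3% and 71.5% of cells and Aqp5 in 53.0% and 49.6%.

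Pdpn was detected in 0.368% and 0.583% of Confetti RFP and YFP cells, 2.02% and 3.22% of 4d RFP, 1.12% and 0.886% of 4d YFP, 1.21% and 2.18% of 2w YFP, and 7.22% and 13.5% of 2w RFP. The discarded cells did not share 1 background level. Pdpn was in 5.73% and 3.38% of the immune clusters 9 and 10, led by Chil3 and by C1qa, in 15.9% of mesenchymal cells, in 0.321% of endothelial cells (exact 95% interval 0.00811 to 1.77) and in 0% of 255 ciliated cells (0 to 1.44). Both 2w RFP libraries lay above clusters 9 and 10, both 4d RFP libraries above the intervals of endothelial and ciliated cells and below those 2 immune clusters, and both Confetti libraries within the endothelial interval.

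Hopx was detected in 21.9% of cells of 2w RFP replicate 2 and 10.3% of 2w YFP replicate 2, but in 1.61% to 4.67% of the other 8 libraries, against 3.91% in immune cluster 9, 8.09% in cluster 10, 48.6% in cluster 17, led by Ccl5 and Cd3g, and 57.6% in ciliated cells. No discarded cell type thus gave a background level for Hopx. The share for Akap5 was 13.0% in 2w RFP replicate 2 and 0.630% to 2.48% elsewhere, with 1.94% in immune cells and 0.321% in endothelial cells. Clic5 was detected in 11.9% of cells of 2w RFP replicate 2 and 1.82% to 8.70% elsewhere, Rtkn2 in 1.62% and 0% to 0.568%, and Emp2 in 51.8% and 25.7% to 34.7%, against 0.454%, 0.0825% and 2.64% in immune cells. Other discarded cells had more, with Clic5 in 52.2% of endothelial cells. Emp2 was in 36.2% of endothelial, 28.4% of mesenchymal and 20.4% of ciliated cells, so immune cells alone give no background level for Clic5 and Emp2. In 2w YFP replicate 2, 0 of 1008 cells had an Rtkn2 UMI at this depth, which allows a share of cells with a UMI of up to 0.298% (3 counts, counting error only). For Cav1 the highest share was 5.11% in 4d RFP replicate 2, against 0.204% to 1.90% elsewhere and 1.11% in immune cells, while 83.3% of the discarded endothelial cells had it. Igfbp2 was seen in 4 thinned alveolar cells. Before thinning, the deep 2w RFP libraries had larger shares, for instance 31.1% and 44.3% for Pdpn and 20.4% and 48.7% for Hopx, and Confetti had 0.631% and 0.735% for Pdpn and 7.63% and 6.53% for Hopx.

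Many of the genes were found together in few cells outside 1 library. Cells with 5 or more of the 10 genes made up 11.01% of 2w RFP replicate 2 (305 of 2770 cells, exact 95% interval 9.87 to 12.2), and 0.102% to 1.39% of the other libraries, with 1.39% (0.761 to 2.32) in 2w YFP replicate 2 and 0.741% (0.501 to 1.06) in 2w RFP replicate 1. These intervals cover counting error only. The mean number of the genes per cell was 2.68 in 2w RFP replicate 2, 2.13 in 2w YFP replicate 2, and from 1.23 in 4d RFP replicate 2 to 1.91 in the others.

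**Figure D3:**
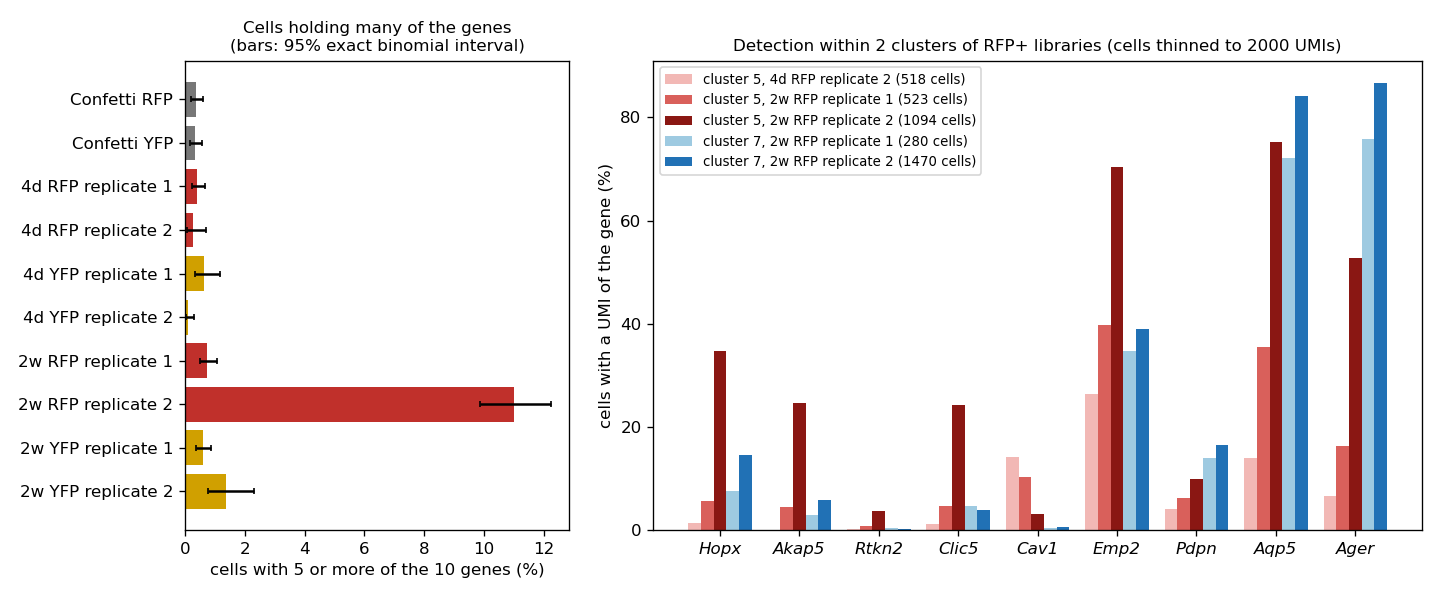
Left, percent of alveolar cells (thinned to 2000 UMIs) with 5 or more of the 10 genes in each library, with exact 95% binomial intervals; right, percent of cells with a UMI of each of 9 genes in cluster 5 and cluster 7 of the libraries that hold at least 280 of their cells. The bar for 2w RFP replicate 2 is at 11.01% and no other is above 1.39%; in that library Hopx, Akap5, Clic5, Rtkn2, Cav1 and Emp2 are detected in a larger share of cluster 5, and Ager, Aqp5 and Pdpn in a larger share of cluster 7.

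The 2w RFP replicate 2 cells fell mainly into 2 clusters, and the genes divided between them. Cluster 5, led by Procr, Aldh1a3 and F3, held 39.5% of its thinned cells, and cluster 7, led by Meg3, Kng2 and Trf, held 53.1%. In cluster 5 of this library, Hopx was detected in 34.7% of cells, Akap5 in 24.6%, Clic5 in 24.3%, Rtkn2 in 3.75% and Emp2 in 70.4%, and the mean was 28.9 UMIs of Sftpc, the AT2-defining surfactant gene, per cell. In cluster 7 the same genes were in 14.5%, 5.78%, 3.81%, 0.272% and 39.0% of cells, beside 219.3 UMIs of Sftpc. Ager went the other way, with 52.7% in cluster 5 and 86.7% in cluster 7, and so did Pdpn, with 9.96% and 16.4%. Of the 305 cells with 5 or more genes, 249 were in cluster 5 (22.8% of it) and 54 in cluster 7. Cluster 7 held 0% of either Confetti library, 0.0711% of 2w YFP replicate 1 and 3.08% of 2w YFP replicate 2. In the last library it held 27.3% of the 22 cells with Pdpn, against 2.54% of the cells without. The clusters were drawn from these genes among others, so this is a description without a test.

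Cluster 5 did not have the same content in every library. In 4d RFP replicate 2 it held 36.2% of the cells, but Hopx was detected in 1.35% of them, Akap5 in 0%, Ager in 6.56% and Aqp5 in 13.9%, and Cav1 in 14.1%, with 5.39 UMIs of Sftpc per cell. In 2w RFP replicate 1 it held 12.9% of the cells, with Hopx in 5.54%, Akap5 in 4.40%, Ager in 16.3%, Aqp5 in 35.6% and Cav1 in 10.3%. Between these 2 libraries and 2w RFP replicate 2, the share with Hopx, Akap5, Clic5, Ager, Aqp5, Emp2 and Pdpn in cluster 5 was lowest in 4d RFP replicate 2 and highest in 2w RFP replicate 2, whereas that with Cav1 was the reverse.  Another 317 cells of 2w RFP replicate 1, cluster 12 led by Gzme, had Ager in 8.20%, Hopx in 5.68%, Pdpn in 7.26% and Aqp5 in 44.5%. The remaining libraries had 0.0254% to 2.88% of their cells in cluster 5.

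In 4d RFP replicate 2, all 73 cells with a UMI of Cav1 (100%) were in cluster 5, 0% had Ager and 4.11% Aqp5, against 49.6% and 39.7% of the cells without Cav1. They had a mean of 1.75 UMIs of Sftpc against 152.6, while 45.2% had Epcam, 45.2% Cldn4 and 68.5% Krt8. None (0%) had a UMI of the 6 endothelial markers Pecam1, Cdh5, Cldn5, Kdr, Ramp2 and Egfl7, against 4.72% of the cells without Cav1, and summed endothelial markers were at 16.03 to 38.6 CPM across the libraries and at 19.7 in this one. Msln, a mesothelial marker, was seen in 9.59% of them and 4.57% of the rest. Summed mesothelial markers stood at 40.5 to 62.4 CPM in the 2w RFP libraries and 4d RFP replicate 2 and at 0.0615 to 11.6 in the other 7, with Wt1 at 0 in all 10 libraries and Upk3b in 6, and their part in the Cav1 result was not tested. In 2w RFP replicate 1, 24.7% of the 77 cells with Cav1 had Ager, against 62.6% of the cells without, and their mean was 33.8 UMIs of Sftpc against 158.2. In 2w RFP replicate 2, 77.3% of 44 such cells had Ager, against 72.8%. In Confetti RFP 91.7% of 24 had it, against 73.2%, and in Confetti YFP 68.6% of 35, against 71.5%.

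Across all libraries, with the library as stratum, the odds of finding 2 of the genes in the same cell were above 1 for most pairs. Of the 36 pairs of the 9 genes (45 pairs were computed, those with Igfbp2 resting on 4 cells), the Mantel-Haenszel odds ratio had a 95% interval above 1 in 32, below 1 in 2 and across 1 in 2, with a median of 1.78 over 29560 cells. The intervals take cells as independent and are a description. Pairs of other genes were not compared, so these counts cannot be read as a trait of these genes. All cells were thinned to the same depth, so UMIs taken by surfactant genes leave fewer for other genes. The part of this in the odds ratios was not tested. High values were seen among Hopx, Akap5, Rtkn2 and Clic5, and for Rtkn2 with Cav1 (6.59, 3.13 to 13.9), a pair for which 0 libraries had 5 or more expected cells. For Hopx with Rtkn2 the odds ratio was 11.8 (7.27 to 19.2, 49 cells with both against 12.4 expected), for Rtkn2 with Akap5 8.94 (5.46 to 14.6), for Hopx with Akap5 7.27 (6.05 to 8.74, 283 against 92.4), for Clic5 with Akap5 5.38 (4.42 to 6.54) and for Hopx with Clic5 4.15 (3.59 to 4.78). The pairs with Rtkn2 rested on few cells, and 39 of the 49 cells with Hopx and Rtkn2 were in 2w RFP replicate 2. Without that library, Hopx with Rtkn2 was at 4.45 (2.26 to 8.77) on 10 cells, Rtkn2 with Akap5 at 11.99 (5.60 to 25.7) on 8, and Clic5 with Akap5 at 3.16 (2.28 to 4.39) on 44. Hopx and Clic5 were found together more often than expected in all 8 libraries in which at least 5 such cells were expected, with odds ratios from 1.97 to 7.65. For Hopx with Akap5 this held in the 1 such library, 2w RFP replicate 2 (7.49), and with both 2w RFP libraries left out the pair stood at 7.04 (5.12 to 9.69, 54 cells against 10.5 expected).

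**Figure D4:**
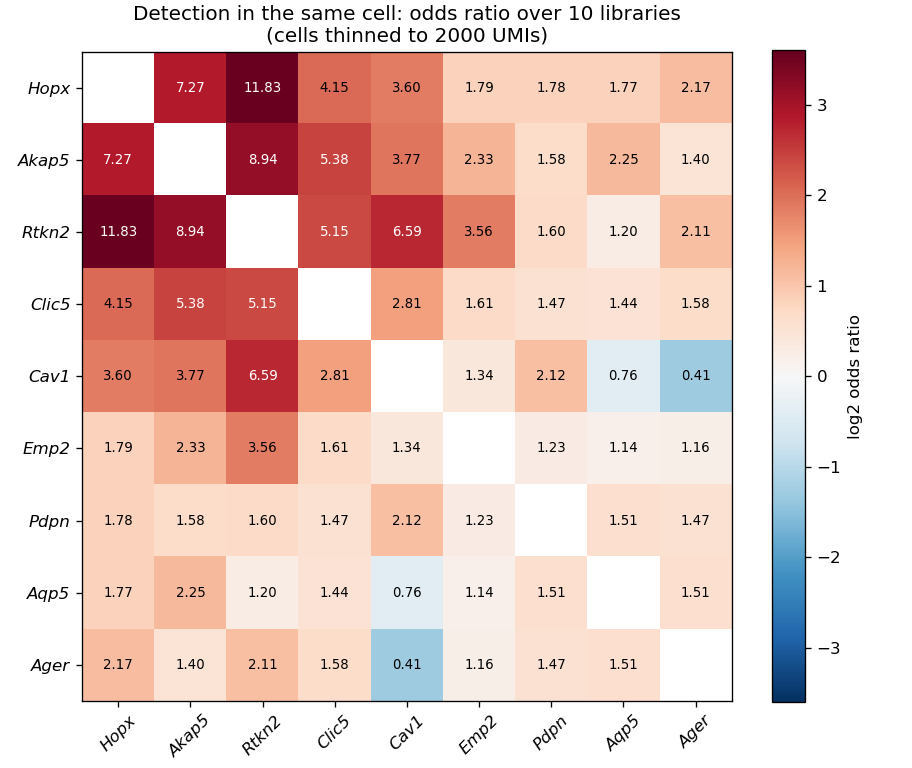
Odds ratio of detecting 2 genes in the same alveolar cell, for each pair of 9 genes, by the Mantel-Haenszel method over 10 libraries with cells thinned to 2000 UMIs; colour gives its log2, red above and blue below 1. Hopx, Akap5, Rtkn2 and Clic5 form a block with values from 4.15 to 11.83, Pdpn is between 1.23 and 2.12 with every other gene, and Cav1 with Ager (0.41) and with Aqp5 (0.76) are the pairs below 1.

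For Pdpn the odds ratios over all libraries were 1.78 (1.47 to 2.16) with Hopx, 1.58 (1.23 to 2.03) with Akap5, 1.47 (1.17 to 1.84) with Clic5 and 1.597 (0.842 to 3.03) with Rtkn2. These values followed the 2w RFP libraries, where Pdpn was most frequent and the value with Hopx was 1.56 (1.25 to 1.94). With both 2w RFP libraries left out, Pdpn stood at 3.21 (2.18 to 4.73, 31 cells) with Hopx, 4.37 (2.40 to 7.96, 12 cells) with Akap5 and 2.47 (1.68 to 3.63, 31 cells) with Clic5, beside 2.46 (2.00 to 3.03) for Hopx with Clic5. In these 8 libraries, Hopx with Clic5 was above Hopx with Pdpn in 2. Among the broadly detected genes, Aqp5 with Emp2 stood at 1.14 (1.08 to 1.20), Ager with Emp2 at 1.16 (1.09 to 1.23) and Ager with Aqp5 at 1.51 (1.44 to 1.597). The last was at 3.08 in 4d RFP replicate 2, 2.04 and 3.11 in 2w RFP and 1.12 to 1.64 in the other 7 libraries.

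Cav1 and Ager were found together less often than expected, with an odds ratio of 0.412 (0.326 to 0.521, 162 cells against 222.0 expected), and Cav1 and Aqp5 with 0.761 (0.606 to 0.957). For Cav1 and Ager this was not so in every library: 5 of 8 libraries were below the expected count and 3 above, with odds ratios from 0 in 4d RFP replicate 2 to 4.02 in Confetti RFP, and in 2w YFP replicate 1 all 15 cells with Cav1 had Ager. Low values were seen in 4d RFP replicate 2 (0) and 2w RFP replicate 1 (0.196), whereas 2w RFP replicate 2 was at 1.27 and Confetti YFP at 0.870. Without 4d RFP replicate 2, Cav1 with Ager was at 0.621 (0.479 to 0.804) and Cav1 with Aqp5 at 1.08 (0.839 to 1.40). Without 2w RFP replicate 1 these were 0.528 (0.402 to 0.693) and 0.939 (0.719 to 1.23). Cav1 with Hopx, in contrast, was at 3.601 (2.602 to 4.98) over all libraries, but 1 library alone had 5 or more expected cells for this pair (4.03).

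In 2w RFP replicate 2, which had the highest shares of cells with Hopx and Akap5, Sftpc was lower in the cells that had them. Cells with Akap5 had a mean of 75.7 UMIs of Sftpc against 149.9 in cells without, and cells with Hopx 100.4 against 151.4. For Pdpn, Sftpc was 105.3 against 159.8 in 2w RFP replicate 1, but 145.9 against 139.4 in replicate 2. Cells with Ager went the other way in the mutant libraries that held most of cluster 5, with 167.7 against 66.4 in 2w RFP replicate 2, 191.8 against 97.5 in 2w RFP replicate 1 and 219.1 against 79.1 in 4d RFP replicate 2, while Confetti RFP had 241.0 against 243.2. Krt8, the keratin of the transitional state, was detected in 83.8% of cells with Akap5 and 68.4% of those without in 2w RFP replicate 2, and in 65.9% of cells with Ager against 82.6% of those without. All cells had 2000 UMIs in these counts, so UMIs taken by surfactant genes leave fewer for others, and the part of this in the differences was not tested.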

How the data were processed

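The authors made gene-by-barcode UMI counts with Cell Ranger against GRCm38 (version 3.1.0 in the submitters' processing notes, 5.0.1 in the deposited file headers; the labels and the methods also name different chemistries). The deposited counts are whole numbers with empty droplets removed. Barcodes with under 1000 genes (9152), over 50000 UMIs (119) or over 15% mitochondrial UMIs (1534) were removed, following the study's methods. Cells were clustered with scanpy 1.11.5 (5000 variable genes, 30 components, 20 neighbours, Louvain resolution 0.8), and 7 of 18 clusters, led by immune, endothelial, mesenchymal or ciliated markers, were left out (3120 cells). Doublets were kept except in 1 alternative, and 137 barcodes of these cells occur in more than 1 library.

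UMIs were summed over alveolar cells per library and tested with edgeR 4.0.16 (R 4.3.3): TMM, filterByExpr, quasi-likelihood F test, Benjamini-Hochberg adjustment over all genes tested, threshold 0.05. The 6 groups were coefficients over 10 libraries, with Confetti as the mean of 2, and RFP against YFP over both times used the 8 Red2Kras libraries with time as a term. Nothing in the labels says which libraries share mice or days, and p-values measure the spread between these libraries. The methods list 1 Confetti sample and 2 Red2Kras samples at each time, with RFP+ and YFP+ cells taken from them. By that count the 2 Confetti libraries are 2 colours of 1 pool of lungs, so they are not replicates. RFP and YFP libraries of the same time would share lungs too, a pairing that the fits without a block leave out. Deviations from group means of same-numbered Red2Kras libraries, over 7064 genes, had correlations of 0.558 between colours at 4 days and 0.680 at 2 weeks. Between times the correlations were lower, at 0.110 to 0.394. Same-numbered libraries of the same time were alike in the share of cells with Xist. Those numbered 1 differed between times (82.7% and 85.1% at 4 days, 35.2% and 25.8% at 2 weeks). The block sets 1 shift per number over both times, and a block within each time was not fitted. The methods say that the libraries were made on more than 1 day but not which ones, so values from a fit with the replicate number as a block are given beside results that it changes. Shares and odds ratios used cells thinned to 2000 UMIs (1 draw, fixed seed). The fits were tested on simulated data.

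All 10 members were reported, up to 4 called genes of each other list with the largest change in 2w RFP against Confetti, and for each member the gene with the highest correlation. The members and lists were chosen with earlier results of these data known. Coordinates are from GENCODE M21 (GRCm38) and promoters from RefSeq (GRCm38.p6). Alternatives were DESeq2 1.42.0, no filter on low counts, all cells that passed the filters, thinned sums, each library left out, other thinning depths, doublets removed, a gate per cell and, chosen after the data were seen, odds ratios with each library, or both 2w RFP libraries, left out.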

Additional observations from a re-analysis of the deposited data

How the results depend on the processing

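Counts of genes called moved with the tool. In the order 2w RFP, 4d RFP, 2w YFP and 4d YFP against Confetti, 2w RFP against 2w YFP, 4d RFP against 4d YFP, 2w RFP against 4d RFP, and RFP against YFP over both times, edgeR called 746, 0, 3, 4, 1, 0, 0 and 0. DESeq2 called 2211, 267, 100, 12, 469, 106, 134 and 1257. Without a filter on low counts edgeR called 3245, 819, 537, 136, 1383, 497, 695 and 1932. Sums over all cells that passed the filters gave 0 in each of the 8. Sums of thinned cells moved 4 of the 8, to 5 for 4d RFP against Confetti, 0 for 2w RFP against 2w YFP, 1 for 2w RFP against 4d RFP and 21 over both times. The replicate block gave 3171, 8, 11 and 7 against Confetti, 0 in the next 3 and 924 over both times, and it changed no member's call beyond the 4 given above. With each library left out in turn the counts ranged over 1 to 1922, 0 to 330, 0 to 6, 0 to 3, 0 to 1, 0 to 194, 0 to 1 and 0 to 1485. The causes were not tested.

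Among 72 log2 fold changes of the members, DESeq2 and the replicate block turned none. DESeq2 called 10 values that were not called as reported, no filter on low counts 21, the replicate block 4, thinned sums 1 and leaving out 1 library 6, among them Akap5 in 2w RFP against Confetti (adjusted p = 0.0466 in thinned sums, 0.0362 without 2w RFP replicate 1). Sums over all cells, which add endothelial and immune cells, turned 8: in 2w RFP against Confetti Cav1 to -1.44 and Clic5 to -0.10, in 4d RFP against Confetti Cav1 to -0.28, in 2w YFP against Confetti Emp2 to -0.083 and Clic5 to -0.39, in 4d YFP against Confetti Clic5 to 0.0069, and in 4d RFP against 4d YFP Cav1 to -0.27 and Aqp5 to 0.038. Thinned sums turned 6: Rtkn2 to 0.69 in 4d RFP against Confetti and 0.47 in 4d RFP against 4d YFP, and Clic5 to -0.077, 0.046 and 0.034 in 2w YFP and 4d YFP against Confetti and over both times, with Cav1 to 0.088 in 4d YFP against Confetti. None of these 14 was called before or after. Leaving out 1 library turned 48 values, and the ranges of the results concerned, on fewer samples, follow. In 2w RFP against Confetti they were Rtkn2 -0.32 to 2.26, Ager -0.46 to 0.48 and Clic5 -0.78 to 0.90. In 4d RFP against Confetti they were Hopx -0.90 to 0.13, Rtkn2 -1.07 to 0.26, Akap5 -0.076 to 0.59, Aqp5 -0.21 to 0.50, Emp2 -0.23 to 0.087 and Ager -1.04 to 0.031. In 2w YFP against Confetti they were Rtkn2 -0.10 to 0.70. In 4d YFP against Confetti they were Hopx -0.52 to 0.40, Cav1 -2.27 to 0.26, Rtkn2 -0.48 to 1.15 and Clic5 -0.57 to 0.32. In 2w RFP against 2w YFP they were Hopx -1.07 to 2.37, Rtkn2 -0.72 to 1.86, Akap5 -0.27 to 2.38, Aqp5 -0.38 to 0.79, Emp2 -0.093 to 0.84 and Clic5 -0.94 to 0.75. In 4d RFP against 4d YFP they were Hopx -0.91 to 0.24, Rtkn2 -1.59 to 0.29, Akap5 -0.56 to 0.27, Aqp5 -0.42 to 0.29 and Clic5 -1.30 to 0.013. In 2w RFP against 4d RFP they were Cav1 -1.72 to 0.77, Rtkn2 -0.12 to 2.56, Ager -0.045 to 1.15 and Clic5 -0.22 to 1.68. In RFP against YFP over both times they were Hopx -0.61 to 0.85, Rtkn2 -0.72 to 0.77, Akap5 -0.22 to 1.07, Aqp5 -0.16 to 0.29, Emp2 -0.26 to 0.19 and Clic5 -0.67 to 0.080. Shares of cells moved by less than their spread without doublets or with a gate per cell, while other depths moved 38 to 53 of 60 shares and 13 to 22 of the odds ratios. Depth limits Igfbp2, Rtkn2 and Cav1 most, with 18, 498 and 1822 UMIs.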
